A study of Mus musculus with 2 samples.

Results

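The genes described here are the plasminogen activators Plat and Plau, the urokinase receptor gene Plaur, and the serpin genes Serpine2 and Serpinf1. They were taken by name as rows of a single-cell expression table of mouse heart, and all 5 were present among its 15247 genes. The cells came from p16-FDR mice, C57BL/6 strain, aged 20 to 22 months, which carry an FLP recombinase and a diphtheria toxin receptor fused to the red fluorescent protein mCherry. Heart cells with mCherry were sorted by flow cytometry and profiled by droplet sequencing of transcript 3' ends, in which each captured molecule is counted once by its unique molecular identifier (UMI). The labels give 2 samples in 1 group and hold no mCherry-negative cells, no young mice and no untreated control, so the comparisons below are between kinds of cell within the sorted population. Separate animals are not stated for the samples. A p-value here rests on how far differences between kinds of cell varied between the libraries, pooled mostly or wholly over genes. That variation may be technical and does not measure variation among animals.

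Plasmin is a broad protease that dissolves fibrin, cleaves matrix proteins and releases growth factors. It is made from circulating plasminogen by tissue plasminogen activator, the product of Plat, and by urokinase, the product of Plau, which is held at the cell surface by the receptor encoded by Plaur. Protease nexin 1, the product of Serpine2, traps urokinase, tissue plasminogen activator and thrombin, whereas the product of Serpinf1, pigment epithelium-derived factor (PEDF), has the serpin fold without inhibiting proteases and is known as a secreted anti-angiogenic factor.

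The table held 1426 cells under 2 column prefixes, Heart1 with 266 cells and Heart2 with 1160 cells, and no cell barcode was shared between them. The prefixes are called libraries here, since they could not be tied to one sample record each. Median depth was 11352 UMIs per cell in Heart1 and 8886 in Heart2. Cells were assigned by 6 fibroblast genes (Dcn, Lum, Col1a1, Col1a2, Col3a1, Pdgfra) and 6 macrophage genes (C1qa, C1qb, Csf1r, Fcer1g, Tyrobp, Cd68), with at least 4 of the 6 own genes and at most 2 of the 6 others detected. This gave 205 fibroblasts and 37 macrophages in Heart1, and 938 fibroblasts and 208 macrophages in Heart2. None of the 5 genes was used to assign a cell. The summed level of the 8 macrophage markers was 46320 and 47063 counts per 1000000 UMIs (CPM) in macrophages of Heart1 and Heart2, against 10.7 and 17.6 CPM in fibroblasts, and that of the 8 fibroblast markers was 47079 and 59239 CPM in fibroblasts against 199 and 228 CPM in macrophages. Cdkn2a, the gene that encodes p16, stood at 82.3 CPM in fibroblasts of Heart1, in 34.6% of the cells. In fibroblasts of Heart2 it stood at only 2.15 CPM, in 0.746% of the cells. All transcripts of the gene are counted together. In macrophages it stood at 118 CPM in Heart1 and 96.9 CPM in Heart2. Fibroblasts of Heart2 therefore held almost no detected message of the gene behind the reporter's name, although they were sorted for the reporter.

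In the GENCODE annotation of GRCm38, which is mm10, Serpine2 lies at chr1:79794197-79861180 on the minus strand, Serpinf1 at chr11:75409769-75422701 on the minus strand, Plat at chr8:22757727-22782844 on the plus strand, Plau at chr14:20836660-20843385 on the plus strand and Plaur at chr7:24462484-24475968 on the plus strand. All are annotated as protein-coding. The upstream sequences of the members that the RefSeq promoter table for GRCm38.p6 held, 3 of 5, are shown because Serpine2 and Serpinf1 shared a high level in fibroblasts and Plaur did not. Plat and Plau are named only. Each window was the 250 bases before the RefSeq start, written 5′ to 3′ on the gene's strand, less any bases that lie in an annotated exon of the gene itself (31 for Serpine2 and 78 for Serpinf1). Capitals mark matches, on either strand, to 4 motifs: the AP-1 letters TGANTCA, the SP1 letters GGGCGG, the TATA letters TATAAA and the letters CCAAT. The printed parts are chr1:79858697-79858915, minus strand, for Serpine2, chr11:75422702-75422873, minus strand, for Serpinf1 and chr7:24462233-24462482, plus strand, for Plaur. That of Serpine2 lies within the gene span given above, so it precedes a start inside the annotated gene.
Serpine2: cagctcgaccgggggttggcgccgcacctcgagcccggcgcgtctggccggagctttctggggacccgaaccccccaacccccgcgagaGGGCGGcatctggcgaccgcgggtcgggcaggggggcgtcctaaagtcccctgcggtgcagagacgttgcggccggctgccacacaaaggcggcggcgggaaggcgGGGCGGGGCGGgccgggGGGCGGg
Serpinf1: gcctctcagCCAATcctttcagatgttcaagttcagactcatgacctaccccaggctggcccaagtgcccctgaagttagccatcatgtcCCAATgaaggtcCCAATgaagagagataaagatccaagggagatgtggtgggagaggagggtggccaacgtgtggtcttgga
Plaur: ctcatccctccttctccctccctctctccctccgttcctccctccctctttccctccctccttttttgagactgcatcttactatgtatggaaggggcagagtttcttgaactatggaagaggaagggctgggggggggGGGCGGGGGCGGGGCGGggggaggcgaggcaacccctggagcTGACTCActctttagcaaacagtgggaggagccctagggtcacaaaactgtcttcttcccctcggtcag
Over the whole windows, Serpine2 had a G and C content of 78.8% and 6 GGGCGG matches, some of which overlap each other. Plaur had 59.6%, 3 adjoining GGGCGG matches, of which the last pair overlap, and 1 TGANTCA match. Serpinf1 had 51.6%, 3 CCAAT matches and no match to the others, and part of its printed stretch lies in an exon of the noncoding gene Gm12336. TATAAA was in none of the 3. Of 32817 RefSeq windows of the same length, 32.7% held GGGCGG, 33.8% CCAAT, 12.4% TATAAA and 6.75% TGANTCA. These matches describe letters and not binding.

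The first comparison was between fibroblasts and macrophages. Of these 2 classes, Serpine2, Serpinf1 and Plat were higher in fibroblasts in both libraries, and Plaur was higher in macrophages in both. Plau was low in both classes and was higher in macrophages in Heart1 only.

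Serpine2 stood at 483 CPM (95% Poisson interval 457 to 510.2) in fibroblasts of Heart1 and at 439 CPM (425 to 454) in those of Heart2. In macrophages it had 0 UMIs in the 37 cells of Heart1, which allows a share of up to 8.11% of cells with a UMI (3 counts of the total), and 3 UMIs in the 208 cells of Heart2, 1.46 CPM (0.301 to 4.27). The fibroblast level was at least 55.9-fold higher than macrophages in Heart1, with macrophages set to a floor of 3 UMIs in that library, and 300.5-fold higher in Heart2 (counting interval 103 to 1458). At least 1 Serpine2 UMI was present in 172 of 205 fibroblasts of Heart1 (83.9%) and in 810 of 938 of Heart2 (86.4%). After each cell was thinned to 3000 UMIs, a depth every cell reached, those shares were 58.0% and 61.7%. Intervals and floors cover counting error only.

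Serpinf1 stood at 1104 CPM (1064 to 1144) in fibroblasts of Heart1 and 941 CPM (920.4 to 962) in those of Heart2, and it was present in 96.6% and 97.8% of the cells. Macrophages held 7 UMIs in Heart1, 20.2 CPM (8.11 to 41.6), and 89 UMIs in Heart2, 43.4 CPM (34.8 to 53.4), spread over 48 of 208 cells. Unlike Serpine2, the PEDF gene was thus detected in 23.1% of macrophages of Heart2, or 12.5% at 3000 UMIs. For comparison, at least 2 of the 8 fibroblast markers were present in 27.9% of those macrophages, and all 8 markers had UMIs there. The macrophage gate itself limits 6 of those markers. By level, the 8 markers summed to 228 CPM there against 59239 CPM in fibroblasts of Heart2. Serpinf1 stood at 43.4 against 941 CPM. Whether the macrophage UMIs of Serpinf1 are free RNA from fibroblasts was not tested.

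Plat stood at 248 CPM (230.1 to 268) in fibroblasts of Heart1 and 208 CPM (198 to 218) in those of Heart2, in 78.5% and 69.6% of the cells. At 3000 UMIs those shares were 42.4% and 43.8%. Macrophages held 1 Plat UMI in each library. The ratio of fibroblasts to macrophages was 86.2 in Heart1 (counting interval 15.4 to 3411) and 426 in Heart2 (76.4 to 16835), so its size is poorly fixed.

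Plau, the urokinase gene, stood at 6.28 CPM (3.66 to 10.0) in fibroblasts and 51.9 CPM (30.7 to 82.0) in macrophages of Heart1. In Heart2 it stood at 25.3 CPM (22.0 to 29.0) in fibroblasts and 24.8 CPM (18.5 to 32.7) in macrophages. The classes were apart in the first library and level in the second. A Plau UMI was present in 7.32% of fibroblasts of Heart1 and 16.8% of those of Heart2, and in 32.4% and 16.8% of macrophages. At 3000 UMIs the fibroblast shares were 3.90% and 7.25%, with binomial intervals of 1.70 to 7.54% and 5.67 to 9.10%, from 8 and 78 UMIs. The macrophage shares at that depth were 13.5% and 4.33%, from 5 and 13 UMIs.

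Plaur, the urokinase receptor gene, stood at 80.7 CPM (53.6 to 117) in macrophages of Heart1 and 24.4 CPM (18.1 to 32.1) in those of Heart2, against 5.54 CPM (3.10 to 9.13) and 4.18 CPM (2.91 to 5.81) in fibroblasts. Its macrophage message was uneven. In Heart1 it was present in 8 of 37 macrophages, and the 5 highest of them held 89.3% of its 28 UMIs. In Heart2 it was present in 26 of 208 macrophages, and the 5 highest held 46% of 50 UMIs. The higher macrophage level of Heart1 thus rests on a few cells.

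**Figure D1:**
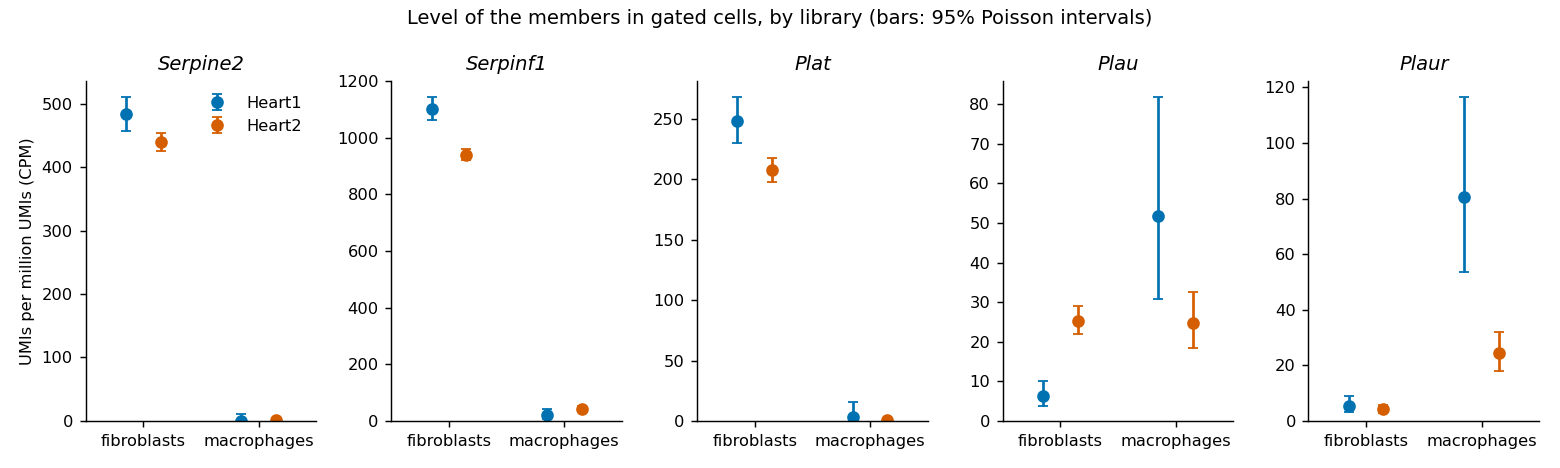
Level of each member (y axis, CPM, each panel with its own scale from 0) in fibroblasts and macrophages of Heart1 and Heart2; bars are 95% Poisson intervals of the summed UMIs. Serpine2 and Plat were near 0 in macrophages. Serpinf1 was far lower there than in fibroblasts but stood at 20.2 and 43.4 CPM. Plaur was higher in macrophages, and the 2 libraries disagree for Plau.

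**Figure D2:**
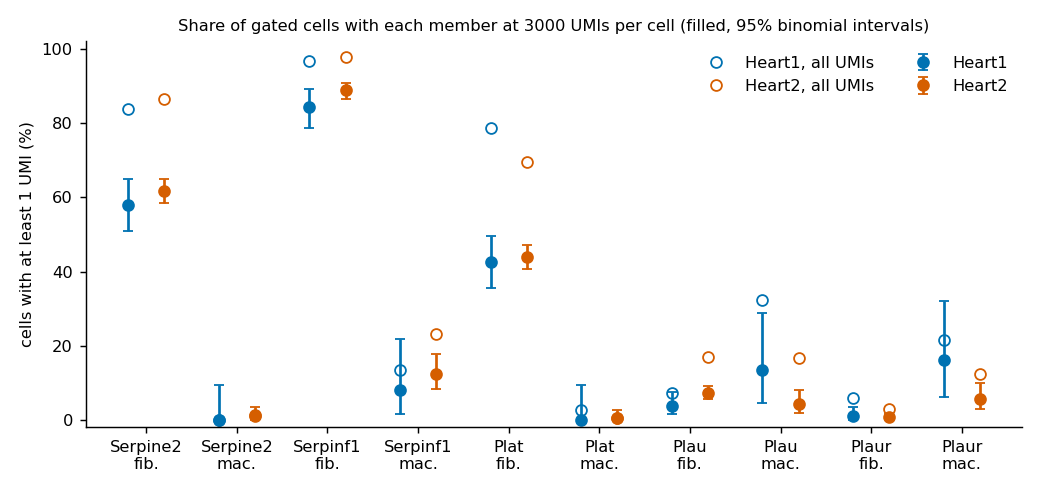
Share of cells with at least 1 UMI (y axis, percent) for each member in fibroblasts (fib.) and macrophages (mac.) of each library, with all UMIs (open points) and after thinning every cell to 3000 UMIs (filled points, 95% binomial intervals). Thinning lowered Serpine2 in fibroblasts from 83.9% and 86.4% to 58.0% and 61.7%.

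The class difference was tested with limma on log2(CPM + 5) of the UMIs summed per class and library, with the library as a block and p-values adjusted by the Benjamini-Hochberg method over 8792 genes. A gene was called at an adjusted p under 0.05. Over all those genes 26.2% were called higher in fibroblasts and 17.4% higher in macrophages, with a median difference of 0.16. Of the 5 members, 3 were called higher in fibroblasts and 2 higher in macrophages. The log2 difference, fibroblasts minus macrophages, of Serpine2 was 6.36 ± 0.26 (SE; Heart1 gave 6.61 and Heart2 gave 6.10; limma adjusted p = 1.19e-18). Plat differed by 5.14 ± 0.27 (5.01 and 5.28; limma adjusted p = 4.54e-16), and Serpinf1 by 4.88 ± 0.23 (5.46 and 4.29; limma adjusted p = 3.02e-17). The sizes for Serpine2 and Plat depend on the pseudocount, because their macrophage sums held between 0 and 3 UMIs. Plaur differed by -2.35 ± 0.34 (-3.02 and -1.68; limma adjusted p = 1.28e-06). These calls held in 8 of 8 tested alternatives each, with a larger limma adjusted p in all of them. It ran from 1.18e-10 to 1.80e-05 for Serpine2, 8.66e-10 to 0.000103 for Serpinf1 and 2.53e-09 to 4.25e-05 for Plat. For Plaur it ran from 0.000247 to 0.0134. Plau differed by -1.16 ± 0.37 (limma adjusted p = 0.0112), but its difference was -2.33 within Heart1 and 0.02 within Heart2, and it passed the threshold in 1 of 8 tested alternatives (adjusted p from 0.0469 to 0.457). The direction of Plau therefore rests on Heart1.

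Plasminogen itself (Plg), made mainly in the liver, is not among the rows of the table, nor are the inhibitor genes Serpinb2, Serpina5, Serpinf2, A2m and Cpb2.

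The other serpins split mostly toward fibroblasts. Of 18 further rows whose symbol begins with Serpin, 7 passed the filter on low values (a mean of at least 10 CPM over the sums); 5 were called higher in fibroblasts and 1 higher in macrophages, with a median log2 difference of 1.38 over the 7. Serpinh1, the collagen chaperone HSP47, differed by 7.41 ± 0.23, Serping1, the C1 inhibitor, by 7.28 ± 0.22, and Serpina3n by 5.57 ± 0.28. Serpinb8 was higher in macrophages, by -3.24 ± 0.31, with 3.32 and 3.70 CPM in fibroblasts and 57.6 and 98.4 CPM in macrophages. Like any list here, this one is compared with the 26.2% of all genes called higher in fibroblasts, and genes that pass only through the class where they are high had to differ.

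Genes that hold plasminogen at the cell surface did not go one way. Of 6 tested, 2 were called higher in fibroblasts, 3 higher in macrophages and 1 neither, with a median of -0.47. The integrin chains Itgam and Itgb2, which together form Mac-1, were the macrophage genes, at -5.63 ± 0.28 and -5.46 ± 0.27, as was the enolase gene Eno1 at -1.16 ± 0.22. Anxa2, whose product annexin A2 binds both plasminogen and tissue plasminogen activator, was higher in fibroblasts, at 0.98 ± 0.17, with 1044 and 697 CPM in fibroblasts against 651 and 284 CPM in macrophages.

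Among partners and uptake receptors of the urokinase receptor, 9 of 12 genes were tested, and 5 were called higher in fibroblasts, 0 higher in macrophages and 4 neither by limma (median 0.65). The endocytic collagen receptor Mrc2, known as the urokinase receptor-associated protein, had 199 and 909 UMIs in fibroblasts and 0 in macrophages of both libraries (4.24 ± 0.33). Igf2r differed by 3.19 ± 0.39, with 1.75 in Heart1 alone and 4.63 in Heart2 alone. Vldlr differed by 1.48 ± 0.39, with 0.71 and 2.25 in the libraries, and Lrp1, the receptor that clears protease and serpin complexes, by 1.42 ± 0.18. Lrp1 stood at 921 and 1013 CPM in fibroblasts and at 444 and 288 CPM in macrophages.

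Of 5 proposed PEDF receptors, 3 were higher in fibroblasts and 2 in macrophages (median 0.64). Plxdc2 differed by 3.57 ± 0.24 and Plxdc1 by 1.93 ± 0.36, the laminin receptor gene Rpsa by 0.64 ± 0.13, and the lipase gene Pnpla2 by -1.07 ± 0.27. Of the genes for growth factors and matrix proteins cut or freed by plasmin or its activators, 6 of 8 were tested, with 4 higher in fibroblasts and 2 in macrophages (median 3.05). The laminin chains Lama2 and Lamc1 differed by 6.01 ± 0.28 and 4.41 ± 0.25, and Tgfb2 by 4.26 ± 0.32. Pdgfc, whose product is activated by tissue plasminogen activator, was higher in macrophages, by -2.76 ± 0.37, and so stood in the other class from Plat. On the coagulation side 7 of 14 listed genes were tested, with 5 higher in fibroblasts, 1 in macrophages and 1 neither (median 2.08). The thrombin receptor F2r differed by 4.66 ± 0.28, tissue factor F3 by 4.10 ± 0.33 and thrombomodulin Thbd by 2.16 ± 0.27. The factor XIII A chain F13a1, which crosslinks fibrin, was higher in macrophages by -7.72 ± 0.28, with 775 and 2052 CPM there and 1.48 and 0.597 CPM in fibroblasts. All differences named in this and the preceding paragraphs on lists passed the limma threshold.

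**Figure D3:**
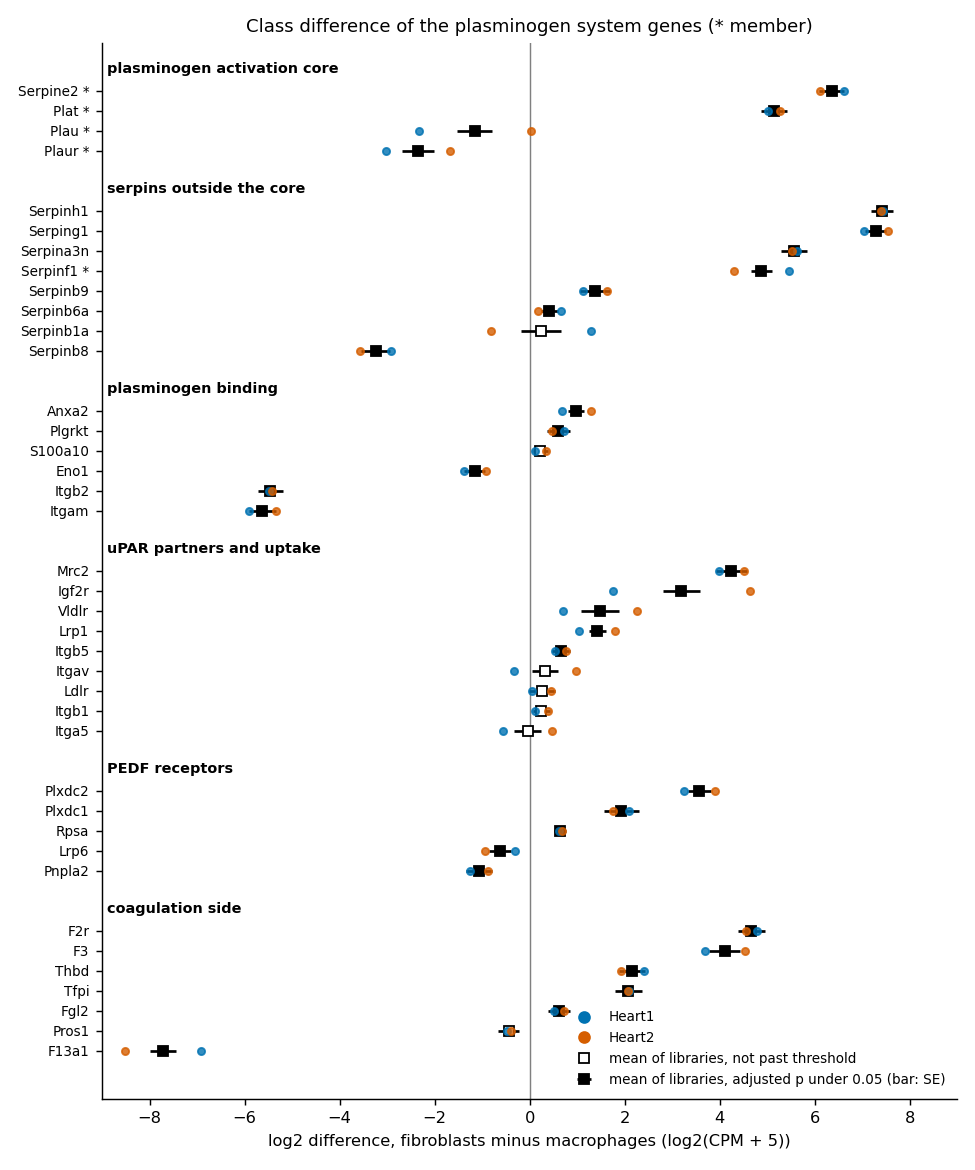
Difference between fibroblasts and macrophages (x axis, log2(CPM + 5), positive where higher in fibroblasts) for tested genes of 6 lists; squares are the mean of the libraries with its SE, filled where the limma adjusted p is under 0.05, and circles are each library. The circles of Plau lie at -2.33 and 0.02, while those of the other 4 members lie on one side of 0.

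The next comparison was between cells with and without a UMI of Cdkn1a, which encodes the cell cycle inhibitor p21, after every cell was thinned to 3000 UMIs. A cell without a UMI at this depth may still hold the transcript, and the message divides along a range rather than into types. Among fibroblasts, 54 of 205 in Heart1 and 154 of 938 in Heart2 had a Cdkn1a UMI. Serpine2 was higher in them in both libraries. Serpinf1 was lower in them in both libraries, but its call depended on the random draw.

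Serpine2 stood at 642 CPM (525 to 778) in fibroblasts with Cdkn1a and 406 CPM (350 to 469) in those without in Heart1. In Heart2 it stood at 636 CPM and 384 CPM. The log2 difference was 0.69 ± 0.14 (0.65 and 0.72; limma adjusted p = 0.000541), against a background of 0.568% of 8630 genes called higher and 0.626% called lower. Cells with at least 1 Serpine2 UMI made up 63.0% against 56.3% in Heart1 and 71.4% against 59.8% in Heart2, and cells with at least 3 made up 29.6% against 11.9% and 29.2% against 13.6%. In 20 further random draws the difference ran from 0.44 to 0.99, was positive in both libraries in 20 of 20 draws and passed the threshold in 19 of 20. It missed the threshold without the library block (limma adjusted p = 0.999, where no gene was called and 130 had an unadjusted p under 0.05) and in cells without a Fos UMI, where it was 0.87 (limma adjusted p = 0.0554).

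Serpinf1 stood at 728 CPM (603 to 872) with and 1177 CPM (1079 to 1281) without Cdkn1a in Heart1, and at 745 CPM and 990 CPM in Heart2. The log2 difference was -0.55 ± 0.11 (-0.69 and -0.41; limma adjusted p = 0.000541). Cells with at least 3 Serpinf1 UMIs made up 29.6% against 57.0% in Heart1 and 35.1% against 49.7% in Heart2. This draw gave a larger difference than any of 20 further ones, which ran from -0.54 to -0.27 with a median of -0.38. The difference was negative in both libraries in all 20, and it passed the threshold in 2 of 20 (median adjusted p = 0.278).

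Plat gave 0.22 ± 0.19 (limma adjusted p = 0.894), with 0.59 in Heart1 and -0.14 in Heart2, and its sign turned with the draw. The libraries kept opposite signs in 20 of 20 further draws, with medians of 0.41 and -0.36. Plau gave -0.27 ± 0.48 (limma adjusted p = 0.963) from 1 and 7 UMIs in Heart1 and 16 and 62 in Heart2, which is too few to show a difference of this size. Plaur did not pass the filter, with 0 and 2 UMIs in Heart1 and 1 and 9 in Heart2.

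Other genes of the system mostly did not pass the test in this comparison. No gene was called by limma among 4 tested for plasminogen binding, 5 PEDF receptors, 6 substrates and 7 coagulation genes. Mrc2 gave -1.11 ± 0.30 (limma adjusted p = 0.0242) and Serping1 -0.39 ± 0.09 (limma adjusted p = 0.00317). In 20 further draws Mrc2 passed the threshold in 0, with a median difference of -0.49 and a median limma adjusted p of 0.705, and Serping1 in 4, with a median of -0.33, so neither call can be leaned on.

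Immediate early genes, which cells induce within minutes of stress and also during tissue dissociation, moved with the same division. Of 11 listed, 9 were called higher in fibroblasts with Cdkn1a and 0 lower by limma, with a median log2 difference of 0.99 (between 2 and 9 called in 20 further draws, median 5.5), among them Atf3 (2.06), Zfp36 (2.00), Fosb (1.27) and Fos. Their summed level was 9086 against 4079 CPM in Heart1 and 2240 against 1232 CPM in Heart2. The summed fibroblast markers stood at 42389 against 53205 CPM in Heart1 and at 54574 against 61705 CPM in Heart2, so they were lower on the side where Serpinf1 was lower. Median genes per cell at this depth were 1448 against 1440 in Heart1 and 1528 against 1516 in Heart2. The part of these in the differences of Serpine2 and Serpinf1 was not tested, beyond the value in cells without a Fos UMI given above.

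**Figure D4:**
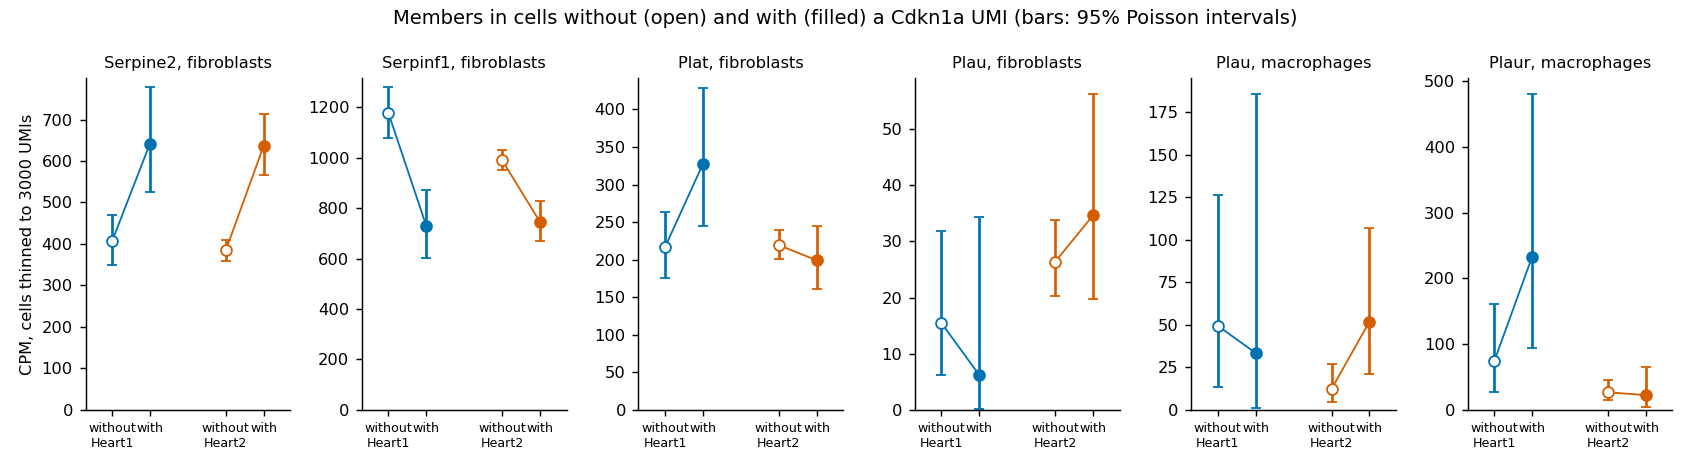
Level of members (y axis, CPM after thinning to 3000 UMIs per cell, each panel from 0) in cells without (open) and with (filled) a Cdkn1a UMI, in fibroblasts and macrophages of each library, with 95% Poisson intervals. Serpine2 rises from 406 to 642 and from 384 to 636 CPM, Serpinf1 is lower in both libraries, and the intervals of the macrophage panels overlap.

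Among macrophages, 10 of 37 in Heart1 and 45 of 208 in Heart2 had a Cdkn1a UMI. None of the 3 members tested was called, against 0.500% of 7605 genes called higher and 0.158% called lower by limma, with 378 genes at an unadjusted p under 0.05. Plaur gave 0.69 ± 0.68, with 7 and 6 UMIs in Heart1 and 3 and 13 in Heart2 on the sides with and without Cdkn1a. Plau gave 0.61 ± 1.02 from 1 and 4 UMIs and 7 and 6 UMIs. Serpinf1 gave -1.96 ± 1.18 from 0 and 4 UMIs and 6 and 31 UMIs. The limma adjusted p was 0.983 for each of the 3, and at these counts no difference of this size was detectable. In 20 further draws each of the 3 passed the threshold in 0. Plaur was positive in 10 of 20 draws in Heart1 and 19 of 20 in Heart2, with medians of 0.09 and 1.56. Its pattern by library thus changed with the draw. Plau was positive in 12 of 20 draws in Heart1 and 20 of 20 in Heart2, and Serpinf1 in 0 of 20 in both. Serpine2 and Plat did not pass the filter. S100a10, the partner chain of annexin A2, was the 1 of 6 plasminogen binding genes called, at 1.10 ± 0.26 (limma adjusted p = 0.00593), with 1400 against 494 CPM in Heart1 and 741 against 452 CPM in Heart2, and in 4 of 20 further draws (median 0.80). Of the immediate early genes, 7 of 11 were called higher (between 2 and 7 in 20 further draws, median 6), and their summed level was 8400 against 1568 CPM in Heart1 and 2111 against 906 CPM in Heart2.

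The members were next described, with no test, in cells divided by a UMI of another gene at 3000 UMIs, in each library where both sides held at least 20 cells. Fibroblasts of Heart1 were divided by Wif1, which encodes a secreted Wnt inhibitor. Serpine2 stood at 121 CPM in the 33 fibroblasts with Wif1 and at 535 CPM in the 172 without, and was present in 27.3% and 64.0% of them. Plat went the other way, at 404 against 215 CPM, and Serpinf1 stood at 747 against 1118 CPM. The summed immediate early genes were at 15727 CPM with Wif1 and 3417 CPM without, and the mural markers at 495 and 69.8 CPM. Heart2 held only 8 fibroblasts with Wif1, so this contrast has no second library.

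In the 23 fibroblasts of Heart1 with Thbs4, a matrix protein gene, Serpinf1 stood at 1826 against 962 CPM and Serpine2 at 739 against 434 CPM, while Plat was at 275 against 242 CPM. The 31 fibroblasts of Heart1 with Cdkn2a had Plat at 376 against 222 CPM (present in 61.3% against 39.1% of cells), Serpine2 at 516 against 460 CPM and Serpinf1 at 839 against 1098 CPM; their immediate early genes were at 12753 against 4088 CPM. Fibroblasts were also divided by Pi16 and Ccl11. A Pi16 UMI was present in most of them, 158 of 205 in Heart1 and 760 of 938 in Heart2, so it did not set a small group apart. In Heart1 Serpine2 stood at 492 CPM in the 158 fibroblasts with Pi16 and 390.1 CPM in the 47 without, Serpinf1 at 1118 against 858 CPM and Plat at 236 against 277 CPM, and Plau had 8 UMIs against 0. In Heart2 Serpine2 stood at 421 CPM with Pi16 and 448 CPM without, and at 406 with Ccl11 and 430 CPM without, while Serpinf1 stood at 978 against 828 CPM by Pi16 and 952 against 949 CPM by Ccl11. Plau there had 66 UMIs with Pi16 and 12 without (28.9 against 22.5 CPM), and stood at 38.4 CPM with Ccl11 and 25.4 CPM without. The Poisson intervals of Serpine2 by Pi16 overlap in both libraries, so its order is not fixed in either. They were 430 to 559 against 294 to 508 CPM in Heart1 and 394 to 448 against 393 to 508 CPM in Heart2. Serpinf1 was higher with Pi16 in both libraries. Its intervals were apart in Heart2, at 938 to 1020 against 752 to 909 CPM, and just overlapped in Heart1.

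In macrophages of Heart2 the few Plau UMIs lay on the side with Folr2, a marker of resident macrophages. All 13, in 9 cells, were among the 133 cells with a Folr2 UMI, and 0 were in the 75 cells without. The 95% binomial intervals of the share with a Plau UMI overlap by Folr2, at 3.14 to 12.5% and 0 to 4.80%. Median depth before thinning was 10352 UMIs with Folr2 and 7566 without. Divided by Ccr2, a marker of monocyte-derived macrophages, 0 Plau UMIs fell in the 29 cells with it and 13, in 9 cells, in the 179 without. The 95% binomial intervals of the share with a Plau UMI overlap there, at 0 to 11.9% and 2.32 to 9.33%. Plaur did not lie on 1 side of Folr2, with 9 and 7 UMIs. In the 29 macrophages of Heart2 with Cdkn2a, against the 179 without, Plau stood at 57.5 against 14.9 CPM (5 and 8 UMIs), Plaur at 46.0 against 22.3 CPM (4 and 12 UMIs) and Serpinf1 at 23.0 against 65.2 CPM (2 and 35 UMIs). These counts are small and come from 1 random draw. They have no replicate, because Heart1 held fewer than 20 cells on 1 side of each of these divisions.

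**Figure D5:**
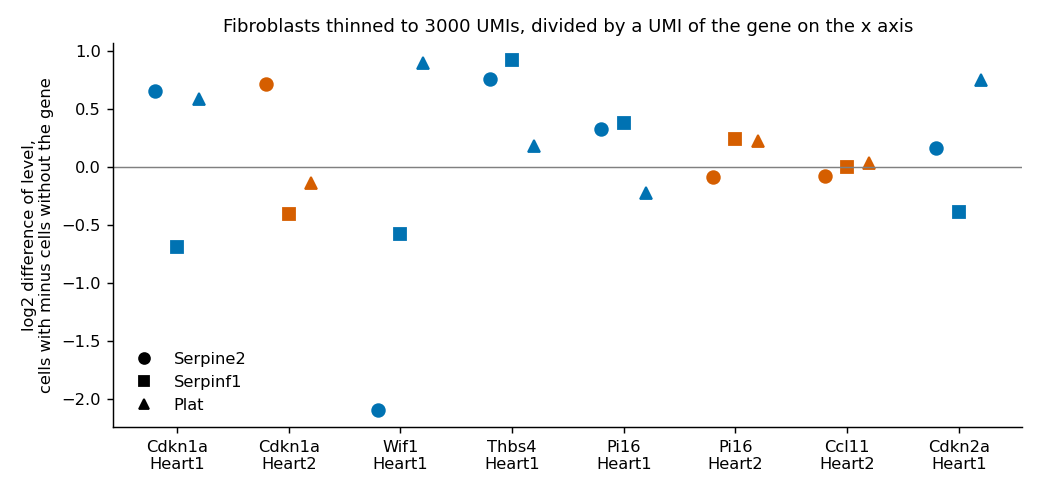
Log2 difference in level of Serpine2, Serpinf1 and Plat (y axis, log2(CPM + 5), cells with minus cells without) in fibroblasts at 3000 UMIs divided by a UMI of the gene on the x axis, for each library with at least 20 cells on each side. The lowest point is Serpine2 by Wif1 in Heart1, at -2.10, and the Ccl11 points lie near 0.

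Within fibroblasts, cells with one of the genes were not marked out by another. At 3000 UMIs Plat was present in 45.4% of cells with Serpine2 and 38.4% of cells without in Heart1. In Heart2 it was present in 40.8% and 48.7%. The binomial intervals overlap in both libraries, so no order is fixed in either. They were 36.2 to 54.8% against 28.1 to 49.5% in Heart1 and 36.7 to 44.9% against 43.5 to 54.0% in Heart2. All 3 of Serpine2, Serpinf1 and Plat were present in 46 of 205 fibroblasts of Heart1 and 210 of 938 of Heart2, and none of them in 8 and 21. Pearson correlations across cells, which share library and depth, lay between -0.09 and 0.09 for every pair described.

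The genes whose values across fibroblasts were most like Serpine2, by the mean of the Pearson correlations in Heart1 (205 cells) and Heart2 (938 cells) over 3745 genes, were Cdkn1a (0.17), Chp1 (0.16) and Col15a1 (0.16). Cdkn1a was alike in both libraries, at 0.165 and 0.180. These are the same cells and thinned UMIs as in the division by Cdkn1a above, so this is no separate result. For Serpinf1 they were Cst3 (0.29), Bgn (0.27) and Mfap4 (0.26), genes of a secreted protease inhibitor and of matrix proteins. For Plat they were G3bp1 (0.16), 4930523C07Rik (0.15) and Ctsh (0.14), each under 0.07 in Heart2. For Plaur in macrophages (37 and 208 cells, 3220 genes) they were S100a4 (0.38), Id2 (0.36) and Plec (0.34), where 16.2% and 5.77% of cells held a UMI of Plaur. S100a4 and Plec stood at 0.59 and 0.51 in Heart1 but at 0.17 each in Heart2, while Id2 stood at 0.30 and 0.41. The Heart1 values rest on 6 macrophages with a Plaur UMI at this depth. Plau was present in too few macrophages of Heart2 (4.33% at 3000 UMIs) for such a ranking.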

How the data were processed

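The authors deposited 1 table of log-scale values; undoing the natural log gave 10000 per cell, so the deposited unit is the natural log of 1 plus UMIs per 10000. Cell Ranger 3.0.2 and build mm10 are named in the submitters' processing notes. Which tool normalized the values, and how cells were filtered, is not given in the sources used here. Every value above 0 was a whole multiple of the cell's step within 1e-06, so whole UMIs were recovered. Depth was 3164 to 79999 UMIs per cell.

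UMIs were summed per library and class and tested with limma 3.58.1 (R 4.3.3) on log2(CPM + 5). Genes had a mean of at least 10 CPM. There was 1 residual degree of freedom, so the spread is pooled over genes almost wholly for the class test and wholly for the Cdkn1a tests. Cells were thinned without replacement. Scrublet in scanpy 1.11.5 predicted 10 doublets in Heart1 and 3 in Heart2, which were kept. The code was tested on simulated data. All members, and up to 4 called genes per list with the same sign in both libraries, are named. 1 gene of the activation list is not reported here. Members and lists were chosen with earlier results of these data known. 20 further draws were added after the calls were seen to differ.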

Additional observations from a re-analysis of the deposited data

Results flagged for a closer look

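Cells outside the compared classes held member UMIs above the floor of 3 counts. Of cells with at least 3 of 6 endothelial markers there were 6 in Heart1 and 9 in Heart2. There Plat, a known endothelial product, stood at 159 CPM in Heart1 (18 UMIs in 3 cells) and 444 CPM in Heart2 (36 UMIs in 3 cells, 29 of them in 1 cell). Plaur, at 80.7 and 24.4 CPM in macrophages, stood here at 203 CPM in Heart1 and 235 CPM in Heart2. In each library 14 of its UMIs were in 1 cell. Serpine2 stood at 35.3 CPM (4 UMIs) and 86.4 CPM (7 UMIs).

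In the 18 cells of Heart1 and 5 of Heart2 that met no rule, of which 8 and 2 were predicted doublets, Serpine2 stood at 355 and 306 CPM, with 30 of 48 and 32 of 38 UMIs in 1 cell. Serpinf1 stood at 66.6 and 274 CPM and Plat at 37.0 and 32.2 CPM. Plau stood at 32.2 CPM in Heart2. These cells are too few for a comparison.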

How the results depend on the processing

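Serpine2, Serpinf1, Plat and Plaur kept their class call in 8 of 8 tested alternatives each. The class difference of Plau lost its call with a pseudocount of 1 (-1.42) or 20 CPM (-0.72), with no filter or no library block (-1.16), thinned to 3000 UMIs (-0.57), with the stricter gate (-1.12) and without predicted doublets (-1.08), and ran from -2.33 to 0.022 when 1 library was left out. Called at 2-fold in both libraries, 1308 genes were higher in fibroblasts and 961 in macrophages.

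In fibroblasts divided by Cdkn1a, 49 genes were called higher and 54 lower. These counts were 32 higher with median ratio scaling, 31 and 13 at 5000 UMIs, 177 and 122 without thinning, 25 and 14 in a second draw, 28 and 25 in the third, a median of 32 and 23 over 20 further draws, 2 and 6 in cells without a Fos UMI, 15 and 14 with the stricter gate, and 24 and 13 at 2-fold in both libraries. At 2-fold in 1 library alone they were 93 to 685 higher and 74 to 630 lower. Without the replicate block of the library, limma called 0 and 0, with 130 genes at an unadjusted p under 0.05. Then Serpine2 (0.69) and Serpinf1 (-0.55) both lost their calls. Serpine2 also did in cells without a Fos UMI (0.87). Serpinf1 did at 5000 UMIs (-0.45), without thinning (-0.36), in 2 other planned draws (-0.32 and -0.35), over further draws (-0.38), without Fos (-0.51) and with the stricter gate (-0.51). Plat, never called, turned sign at 5000 UMIs (-0.10), without thinning (-0.11), in those 2 draws (-0.12 and -0.15) and over further draws (-0.0078). The cause was not tested.

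In macrophages divided by Cdkn1a, 38 and 12 genes became 17 higher with median ratio scaling, 1 and 0 with no library block, with 298 genes at an unadjusted p under 0.05 by limma, 100 and 26 without thinning, 232 and 244 at 2-fold in both libraries, and 684 to 2153 higher and 572 to 1977 lower at 2-fold in 1 library alone. Median ratio scaling moved the median of all genes from -0.03 to -0.22 there. The second draw, cells without a Fos UMI and the set without predicted doublets could not be fitted, since a sum held under 10 cells. Depth limits the macrophage test of the members: at 3000 UMIs macrophages of Heart2 held 13 UMIs of Plau, 16 of Plaur, 2 of Serpine2 and 1 of Plat.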
